A study of Solanum lycopersicum var. cerasiforme with 6 samples.

Results

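KLUH, OVATE, OFP20, TRM5 and SUN are tomato genes known for their effect on the weight or the shape of the fruit, and their transcripts were measured in young inflorescences of plants that differed at fw2.3, a fruit weight locus. They were chosen by identifier, as the rows of Solyc03g114940 (KLUH), Solyc02g085500 (OVATE), Solyc10g076180 (OFP20), Solyc07g008670 (TRM5) and Solyc10g079240 (SUN). Each identifier had a single row, so the 5 genes are 5 of 34081 rows in the count files. The rule used no measured value, but the members were chosen with earlier results of these data known. The plants were F3 progenies of Solanum lycopersicum var. cerasiforme, the cherry tomato group, and they carried either the derived allele, fw2.3-D, or the wild-type allele, labelled fw2.3-WT. The sources used here do not name the parents or what else segregated among the progenies. Inflorescences were taken while their largest floral bud was under 2 mm long. A library was made from the RNA of 2 same-genotype plants mixed in equal parts, and each genotype had 3 such pools.

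Fruit shape in tomato is set largely before and around flowering, in the ovary, by the direction and amount of cell division and growth. OVATE gave its name to the OVATE family proteins, and a truncated OVATE allele makes fruit pear-shaped or elongated. OFP20 belongs to the same family, and its loss adds to the effect of OVATE. TRM5 is a TONNEAU1 recruiting motif protein, of a group that acts on the microtubule cytoskeleton, and it can bind OVATE family proteins. SUN is a member of the IQ-domain protein family, and its overexpression elongates fruit. KLUH is a cytochrome P450 of the CYP78A group that promotes organ growth, and it underlies the fruit weight locus fw3.2, where the large-fruited allele is a duplication. Whether the plants carried the duplications known at fw3.2 or of SUN is not stated in the labels, and reads of near-identical copies would not be told apart in these counts.

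Total counts per pool ran from 22303511 to 28504360. Of 8 identifiers remembered as genes of floral and inflorescence meristems or floral organs, all 8 were detected in every pool, at 0.983 to 165 CPM (CPM are counts scaled to the library total, here with TMM factors between pools). Of 4 identifiers remembered as genes of ripening fruit, 1 was at 0 in every pool. The others were also detected in every pool, and reached at most 3.97 CPM. The lowest floral identifier, at 0.983 to 3.04 CPM, overlapped them in level. Over all genes, fw2.3-D replicate 1 and fw2.3-WT replicate 1, the first pools, were more alike than any other pair, with a chi-square per gene of 12.2 against 16.3 or more elsewhere. They also stood apart in 4 of 5 identifiers remembered as circadian clock genes, where the mean of the first pools was 0.405 to 2.07 times that of the other pools. Of all rows that passed a filter on low counts, both first pools were below all other pools in 9.97% and above them in 11.9%. Results are therefore also given without the first pools.

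The 5 genes covered a wide range of levels in the inflorescences. Levels of different genes were compared in the deposited RPKM, which scale the reads to gene length and to the counted total, with gene lengths of 1949 bases for KLUH, 3168 for TRM5, 1186 for OVATE, 966 for OFP20 and 1406 for SUN. KLUH, the growth-promoting P450, stood highest at 105 ± 12.5 RPKM (SD, n = 6). TRM5 followed at 44.5 ± 7.04 RPKM (SD, n = 6). OVATE and OFP20 were much lower, at 6.97 ± 0.760 and 5.49 ± 1.67 RPKM (SD, n = 6). SUN was lowest, at 0.392 ± 0.218 RPKM (SD, n = 6).

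The order KLUH, TRM5, then the OVATE family pair, then SUN held in every pool. KLUH was 2.35-fold above TRM5, TRM5 was 6.38-fold above OVATE, and OFP20 was 14.0-fold above SUN in mean RPKM, and in each of these steps the 6 pools did not overlap. OVATE and OFP20 could not be ranked beyond their spread: OVATE ran from 5.85 to 8.13 RPKM and OFP20 from 3.62 to 8.03 RPKM, and OVATE was the higher in 5 of 6 pools. The exception was fw2.3-WT replicate 2. Against all genes with an RPKM above 0 in the same pool, KLUH lay at percentiles 93.9 to 95.7 and TRM5 at 83.3 to 88.7. OVATE lay at 36.9 to 43.2, OFP20 at 30.4 to 41.7 and SUN at 4.55 to 13.1.

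**Figure D1:**
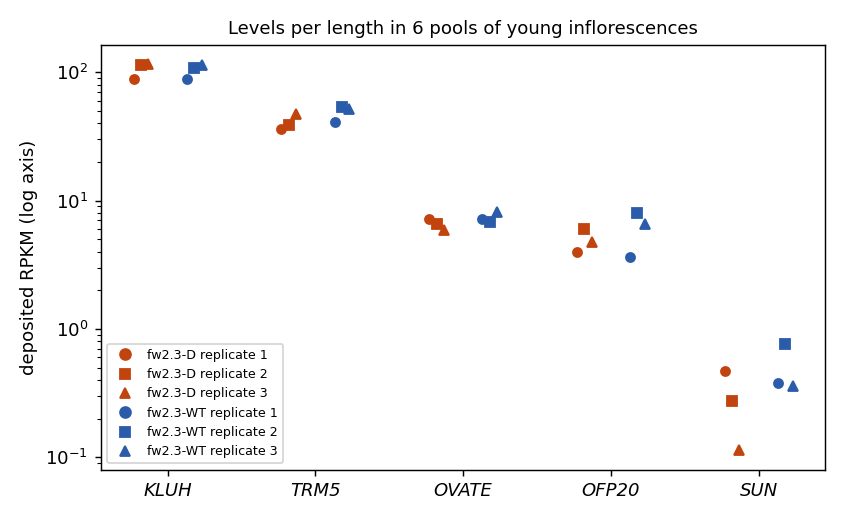
Deposited RPKM (log axis) of each gene in each of the 6 pools, with fw2.3-D pools in orange and fw2.3-WT pools in blue and one symbol per replicate number. KLUH and TRM5 sit above the OVATE family pair, OVATE and OFP20 overlap, and SUN is lowest, from 0.113 to 0.765 RPKM.

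None of the 5 genes differed between the genotypes beyond the spread of the pools. EdgeR's quasi-likelihood test was run in one fit over 20942 rows that passed a filter on low counts, with p-values adjusted over all of them (Benjamini-Hochberg), and a gene was called at an adjusted p under 0.05. All 5 genes passed the filter, 0 of 5 were called by edgeR, where 0.0239% of all tested rows were called, and 0 of 5 had an unadjusted p under 0.05, where 3.56% of all rows did. DESeq2 also called 0 of 5, where it called 48 of all 20942 rows. The pools of the genotypes overlapped in all 5 genes, where they did not overlap in 9.49% of all rows. With only 5 genes, a count of 0 is near each of these shares and does not set the genes apart from other rows. The fold changes, fw2.3-D over fw2.3-WT, were below 0 on the log2 scale in 4 of 5 genes, against 49.8% of all rows, with a median of -0.23 against 0.00083. Had a difference been called, bulk tissue could not tell a changed share of expressing cells apart from changed RNA per cell.

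OVATE, the negative regulator of fruit elongation, had 222, 223 and 174 counts in fw2.3-D replicates 1 to 3, and 209, 181 and 231 in the fw2.3-WT replicates. On the scale compared between pools this was 8.89, 7.76 and 6.90 CPM in fw2.3-D against 8.64, 8.08 and 9.32 CPM in fw2.3-WT. The lowest 2 values were in fw2.3-D pools and the highest in a fw2.3-WT pool, but fw2.3-D replicate 1 was above the other two fw2.3-WT pools. The means were 7.85 ± 0.997 and 8.68 ± 0.621 CPM (SD, n = 3), and the log2 fold change was -0.15 (SE 0.176, edgeR adjusted p = 0.948). The 95% interval of the fold, 0.688 to 1.19, does not reach a 2-fold difference in either direction. OVATE lies on chromosome 2, the chromosome for which fw2.3 is named. Its 5 tested neighbours on each side in identifier order ran from -0.46 to 0.18 in log2 fold change, with 5 of 10 below 0. Of these 10, 0 were called by edgeR (0 at an unadjusted p under 0.05). The shares of all tested rows were 0.0239% called and 3.56% at an unadjusted p under 0.05.

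OFP20, the other OVATE family gene, was counted 100, 165 and 116 times in the fw2.3-D pools, against 86, 173 and 151 times in the fw2.3-WT pools. In CPM it stood at 4.004, 5.74 and 4.60 in the former and at 3.56, 7.73 and 6.09 in the latter. The fw2.3-WT pools held both the lowest and the highest value, so the fw2.3-D pools lay inside their range. The means were 4.78 ± 0.884 and 5.79 ± 2.102 CPM (SD, n = 3), and the log2 fold change was -0.27 (SE 0.296, edgeR adjusted p = 0.948). Its interval was wider, with folds from 0.524 to 1.31. Single pools decided much of this value, since the log2 fold change was -0.01 without fw2.3-WT replicate 2 and -0.53 without fw2.3-WT replicate 1.

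TRM5, the cytoskeletal partner of the OVATE family, was counted 2949, 3504 and 3725 times in the fw2.3-D pools, against 3165, 3759 and 3898 times in the fw2.3-WT pools. Its CPM were 118, 122 and 148 with the derived allele and 131, 168 and 157 with the wild-type allele. The fw2.3-WT pools of replicates 2 and 3 were the highest of the 6, while fw2.3-D replicate 3 was above fw2.3-WT replicate 1. TRM5 had the smallest unadjusted p of the 5 genes, 0.127 (edgeR), and its log2 fold change was -0.23 (SE 0.140, adjusted p = 0.948). The fw2.3-D mean was 129 ± 16.1 CPM and the fw2.3-WT mean was 152 ± 19.1 CPM (SD, n = 3), and the interval of the fold ran from 0.685 to 1.06. Without fw2.3-D replicate 3 the log2 fold change was -0.34, with an edgeR unadjusted p of 0.0468 and an adjusted p of 0.679. Leaving out that pool also raised the number of all tested rows with an unadjusted p under 0.05. It was 1472 of 21218, against 746 of 20942 with all pools.

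Because OVATE family and TRM proteins bind each other, their transcripts were also compared as a ratio within each pool, which does not depend on scaling between pools. TRM5 had 4.97, 5.88 and 8.01 times the RPKM of OVATE in fw2.3-D replicates 1 to 3, and 5.67, 7.77 and 6.32 times in fw2.3-WT. Against OFP20 it had 8.99, 6.48 and 9.79 times the RPKM in fw2.3-D and 11.2, 6.63 and 7.87 times in fw2.3-WT. Both ratios overlapped between the genotypes. The log2 ratio of OVATE to TRM5 was -2.62 ± 0.349 in fw2.3-D and -2.71 ± 0.232 in fw2.3-WT (SD, n = 3), a difference of 0.08 (exact permutation test, two-sided, p = 0.8). That of OFP20 to TRM5 was -3.05 ± 0.315 and -3.06 ± 0.388 (SD, n = 3), a difference of 0.01 (exact permutation test, two-sided, p = 0.9). With 3 pools against 3, the smallest p this test can give is 0.1.

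KLUH, the P450 that promotes organ growth, was counted 4469, 6299 and 5664 times in the fw2.3-D pools, against 4261, 4681 and 5281 times in the fw2.3-WT pools. Its CPM were 179, 219 and 225 with the derived allele and 176, 209 and 213 with the wild-type allele. The pools of replicates 2 and 3 were close together in both genotypes, and the first pools were lower in both. The means were 208 ± 25.0 and 199 ± 20.3 CPM (SD, n = 3), and the log2 fold change was 0.06 (SE 0.137, edgeR adjusted p = 0.969). The interval of the fold ran from 0.842 to 1.29. Its sign was not stable, since the log2 fold change was -0.00073 without fw2.3-D replicate 3 and -0.025 without fw2.3-WT replicate 1.

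SUN was near the limit of detection. This gene of the IQ-domain family was counted 17, 11 and 4 times in the fw2.3-D pools, against 13, 24 and 12 times in the fw2.3-WT pools, where a floor of 3 counts corresponds to 0.105 to 0.135 CPM. Its CPM were 0.681, 0.383 and 0.159 with the derived allele and 0.537, 1.07 and 0.484 with the wild-type allele. The lowest 2 values were fw2.3-D pools, and fw2.3-D replicate 1 was above all fw2.3-WT pools but replicate 2. The log2 fold change was -0.76 (SE 0.612, edgeR adjusted p = 0.948), between means of 0.407 ± 0.262 and 0.698 ± 0.325 CPM (SD, n = 3). Its interval, from a fold of 0.228 to 1.52, includes a level up to 4.38-fold lower in fw2.3-D, so a difference of that size lies within the error.

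**Figure D2:**
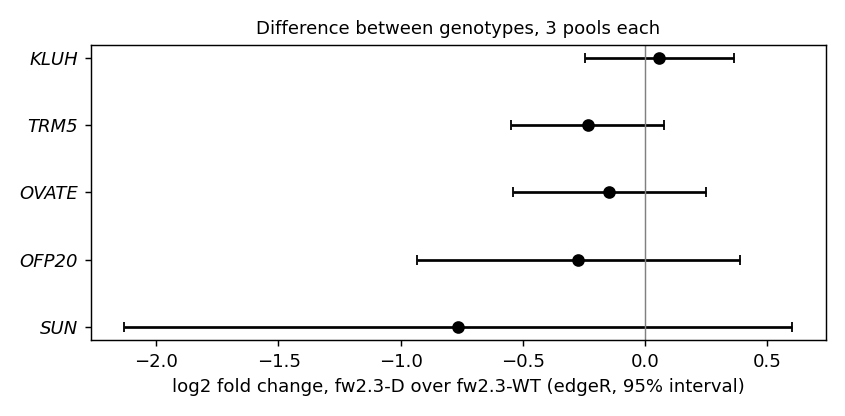
Log2 fold change of each gene, fw2.3-D over fw2.3-WT, from edgeR with 3 pools of each genotype; points are estimates and bars are 95% intervals. All 5 intervals cross 0, and they widen from KLUH (-0.25 to 0.36) to SUN (-2.13 to 0.60).

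The genes differed in how evenly they were expressed among the pools. The coefficient of variation of the CPM over all 6 pools was 10.2% for KLUH, 10.5% for OVATE, 14.3% for TRM5, 29.2% for OFP20 and 55.8% for SUN. Counting error alone, from the number of reads, would give 1.41% for KLUH, 1.70% for TRM5, 6.99% for OVATE, 8.93% for OFP20 and 30.2% for SUN. KLUH and OVATE had a similar total spread at very different read numbers, and counting error was a larger part of it in OVATE. OVATE and OFP20 had similar mean levels, and OFP20 was the more variable of the pair, with a 2.17-fold range of CPM against 1.35-fold for OVATE.

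In 2 of the 5 genes the first pools were low in both genotypes. In KLUH and in OFP20 the first pools were the lowest 2 of the 6, a pattern found in 9.97% of all tested rows. The mean of the first pools was 0.820 times that of the other pools in KLUH and 0.626 times in OFP20. The same ratio was 0.837 in TRM5, 1.09 in OVATE and 1.16 in SUN, where the first pools were not the lowest 2. Of the 5 clock identifiers, 3 had both first pools lowest and 1 had both highest, where 9.97% and 11.9% of all tested rows did. The part of collection time in the levels of KLUH and OFP20 was not tested. Without the first pools, edgeR again called 0 of 5 genes, where it called 21 of 21034 tested rows. At an unadjusted p under 0.05 there were 0 of 5 genes and 871 of all tested rows. The log2 fold changes without the first pools were 0.07 for KLUH, -0.25 for OVATE, -0.42 for OFP20, -0.27 for TRM5 and -1.49 for SUN.

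**Figure D3:**
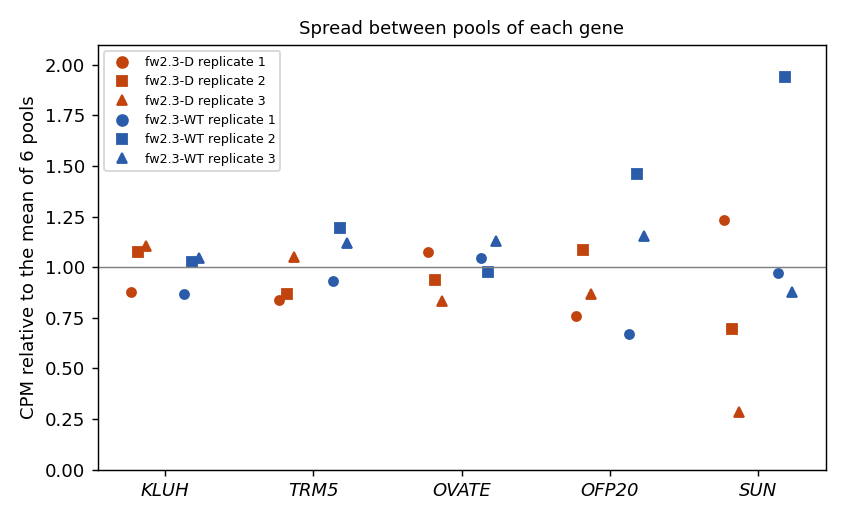
CPM of each gene in each pool relative to its mean over the 6 pools (line at 1), with fw2.3-D in orange, fw2.3-WT in blue and one symbol per replicate number. The first pools (circles) of both genotypes are the lowest for KLUH and OFP20, and SUN has the widest spread.

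For each gene, the gene with the most similar pattern over the 6 pools was found by Pearson's r on log2 CPM, as a description of pools that share their replicate structure. Among 19374 other genes that averaged at least 1 CPM, the gene most like TRM5 over the pools was Solyc08g062650 (r = 0.998). The one most like KLUH was Solyc05g010340 (r = 0.990), that most like OVATE was Solyc03g082420 (r = 0.993), and that most like OFP20 was Solyc09g082170 (r = 0.991). SUN was most like Solyc01g079180 (r = 0.987). Such likeness was common with 6 pools: 594 genes had an r above 0.9 with TRM5, 247 with KLUH, 202 with OFP20, 125 with SUN and 67 with OVATE.

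The chromosomal neighbours of the other members were also without calls. Among the 5 tested genes on each side, log2 fold changes ran from -0.38 to 0.21 around KLUH on chromosome 3, from -0.83 to 1.198 around TRM5 on chromosome 7, and from -0.58 to 0.82 around OFP20 and -0.35 to 0.44 around SUN, both on chromosome 10. EdgeR called 0 of 10 in each of these sets, where it called 0.0239% of all tested rows. Around TRM5 and around SUN, 1 of 10 had an unadjusted p under 0.05, where 3.56% of all tested rows did.

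Among 7 further identifiers remembered as genes of other fruit weight and shape loci, 5 passed the filter and 0 were called by edgeR or by DESeq2 (0 at an unadjusted p under 0.05 in edgeR). Of all tested rows, edgeR called 0.0239% and DESeq2 called 48 of 20942, and 3.56% had an unadjusted p under 0.05 in edgeR. Their log2 fold changes ran from -0.67 to 0.16 with a median of -0.33, and 3 of 5 were below 0. Of the other two, 1 had no counts in any pool, which allows up to 0.105 to 0.135 CPM, and 1 had at most 10 counts.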

How the data were processed

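Per the labels' protocols, RNA of 2 plants was pooled per library to form 6 pools, and library construction was not strand-specific, so reads of a gene and of an antisense neighbour are counted together. The authors deposited raw read counts of each pool and a table of RPKM. Per the submitters' processing notes, the tools included cutadapt, STAR and edgeR. The sources used here do not say how multiply mapped reads were counted. The RPKM deposited by the authors gave one gene length across pools, within 0.01%, for 24593 of 24595 genes, so they carry no scaling beyond the total.

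Genes were tested with edgeR 4.0.16 in R 4.3.3 (glmQLFit, glmQLFTest, two-sided) with TMM factors, filterByExpr (minimum count 10) and genotype as the single term. SE is the log2 fold change over the square root of F. Fitted intervals are 95%. The code was tested on simulated data. Floors and counting errors cover counting error only. Alternatives were DESeq2 1.42.0, RLE factors, other filters, a robust fit, the replicate block, pools left out, and limma 3.58.1 on log2(RPKM + 1) and log2(RPKM + 0.1).

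Members and lists were chosen with earlier results of these data known. All 5 members are named; of the other identifiers, only called ones and the gene most correlated with each member over pools. The deposited data pair no names with identifiers: 0 of 34075 matched the RefSeq table of SLM_r2.1. That table holds the symbols of 4 members, on the chromosome of the identifier in 4 of 4, which compares the chromosome only. KLUH has no symbol in it. The names of the 5 members came with the rule that chose them, and the list identifiers rest on published assignments as remembered.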

Additional observations from a re-analysis of the deposited data

How the results depend on the processing

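Under 15 alternatives the number of the 5 genes called stayed at 0, and so did the number of the 7 other fruit genes called, which includes each pool left out (0 to 0). Of these 7, 5 were tested in the main fit, and the identifier with no counts in any pool could not be called in any fit. Some alternatives called no row at all, so the count of 0 was fixed there. These were the fits without fw2.3-D replicate 2 or 3 and without fw2.3-WT replicate 2 or 3, and both limma fits. The log2 fold changes of OVATE, OFP20, TRM5 and SUN were below 0 in every alternative that gave a value, from -0.25 to -0.06, -0.53 to -0.01, -0.34 to -0.16 and -1.49 to -0.22. SUN had no value with a filter of 1 CPM in 3 pools. With each pool left out, OVATE ran from -0.24 to -0.06, OFP20 from -0.53 to -0.01, TRM5 from -0.34 to -0.16, SUN from -1.33 to -0.33 and KLUH from -0.025 to 0.15. KLUH changed sign without fw2.3-D replicate 3 (-0.00073) and without fw2.3-WT replicate 1 (-0.025). The difference between genotypes, fw2.3-D minus fw2.3-WT, in the log2 ratio of OVATE to TRM5 ran from -0.072 to 0.27, below 0 without fw2.3-D replicate 1 (-0.072) and without fw2.3-WT replicate 2 (-0.043). The same difference for OFP20 to TRM5 ran from -0.20 to 0.18, below 0 without fw2.3-D replicate 2 (-0.17) and without fw2.3-WT replicate 1 (-0.20), and was -0.14 without the first pools. The cause was not tested. The adjusted p of the 5 genes ran from 0.679 to 1.00 over the alternatives. Replicate numbers were not taken as pairs, since the deviations from the genotype means correlated at 0.357, -0.085 and 0.061 between pools of one number. With the replicate block, edgeR called 10 of all tested rows in place of 5, and the log2 fold changes were 0.06 for KLUH, -0.15 for OVATE, -0.23 for OFP20, -0.23 for TRM5 and -0.84 for SUN. Over all rows, DESeq2 called 48, edgeR called 13 with no filter, 21 without the first pools and 0 to 18 with each pool left out, and limma called 0 (774 and 746 at an unadjusted p under 0.05 with pseudocounts of 1 and 0.1). At 4 to 24 counts, SUN had the largest counting error of the 5 genes, 30.2%. Its coefficient of variation over the pools was larger still, 55.8%.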
